A study of Zea mays with 18 samples.

Results

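NAC transcription factor genes were followed through stem development in 3 maize (Zea mays) hybrids. Members were all genes whose deposited protein match contains NAC domain, NAC transcription factor, NAC1 or NAM in capital letters, which gave 121 genes, and 2 secondary wall NAC genes were then left out, leaving 119 of the 34474 genes in the table. The rule reads protein names and no measured value, and it was set with earlier results of these data known. Poly-A RNA of stem was sequenced from 18 libraries, 2 for each combination of hybrid and stage. The low hybrid is the cross Dan 598xFAPW, the middle hybrid is Dan 598xCML444 and the high hybrid is Dan 598xES40, so the shared parent Dan 598 stands behind every library. The low, middle and high classes refer to plant height, and each class is 1 hybrid, so height and genotype cannot be told apart. The stages are jointing (when the stem begins to elongate), the big flare period (late in whorl growth) and tasseling (when the tassel appears). Nothing in the labels says that replicate libraries are separate plants, so p-values refer to the spread between libraries, part or all of which may be technical.

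NAC proteins are a plant-specific family that binds DNA through a conserved domain near the N terminus and carries a variable regulatory region near the C terminus. Members known from Arabidopsis and rice set organ boundaries (NAM and CUC), mediate auxin-dependent lateral root formation (NAC1), respond to drought and abscisic acid, or switch on secondary wall and vessel formation (NST, SND and VND). The wheat NAM-B1 protein promotes leaf senescence and the movement of nutrients to the grain, and some NAC proteins are held at membranes until they are released.

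Of the members, 65 had a NAC match with only a generic family name, and 37 had a name that points to a role known in another plant. Among the 65, Zm00001d031463 was also matched to CUP-SHAPED COTYLEDON 1 and was not given a role. Counted over all members, 3 were also matched to another kind of protein: Zm00001d043094 to pentatricopeptide repeat proteins, Zm00001d023481 to the small GTPase Rab7 and Zm00001d037223 to the lipid kinase FAB1A. Zm00001d023481 and Zm00001d037223 are among the 65. RefSeq symbols were found for 57 members. None of these names was checked by sequence.

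Values are FPKM, a fragment count divided by the length of the transcript and by library size, so levels can be compared between genes. Libraries are named below by hybrid, stage and replicate number. Between 20758 and 22708 genes reached 1 FPKM in a library. Across all genes, replicates correlated at 0.90 to 0.941 on the log2(FPKM + 1) scale, and across the 69 NAC genes tested at 0.808 (high jointing) to 0.941 (middle tasseling). Over all genes, low jointing 2 and low big flare 1 were nearest to each other, high jointing 1 was nearest to high big flare 1, and high jointing 2 was nearest to high tasseling 2. Over the NAC genes, high jointing 2 was nearest to high tasseling 1 (r = 0.93). Low jointing 2, low big flare 1 and both high jointing libraries, 4 in all, were thus nearest, over all genes, to a library of another stage. Counts below are also given without low jointing 2, low big flare 1 and high jointing 2, referred to as the 3 libraries, an alternative chosen after seeing the data. High jointing 1 was kept in it because leaving out both high jointing libraries would empty that group.

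The family was active in the stem but unevenly so. Between 40 and 51 NAC genes reached 1 FPKM in a library, and their summed level was 467.2 to 758.8 FPKM, or 0.0654% to 0.1088% of all FPKM. The mean over the 18 libraries was 10 FPKM or more in 17 members, between 1 and 10 in 31 and below 1 in 71. In 42 members no library reached 1 FPKM, while 28 members were at 1 FPKM or more in all 18 libraries. The 6 most abundant members held a median of 45.6% of the summed NAC level (33.8% to 54.6% between libraries). The summed level had a median of 582.4 FPKM at jointing, 644.2 at big flare and 626.2 at tasseling, and the ranges of the 3 stages overlapped.

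**Figure D1:**
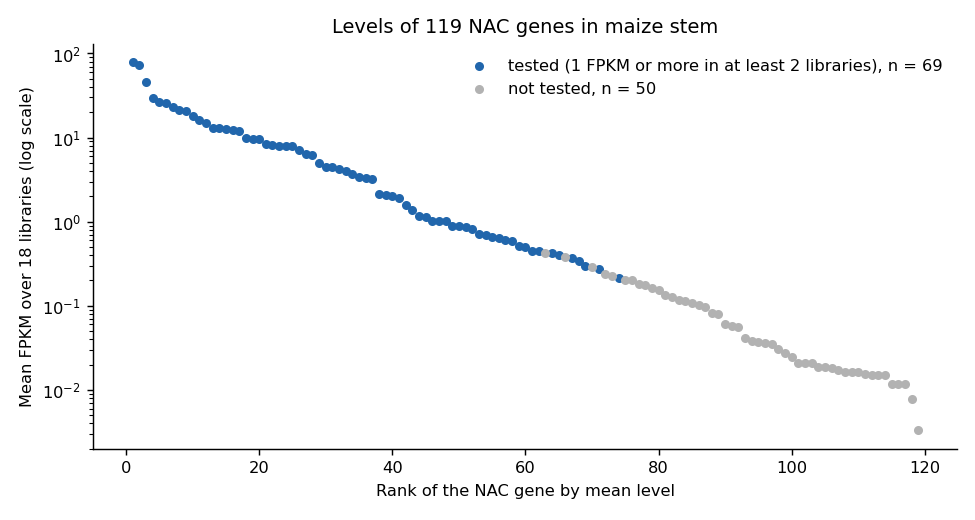
Mean FPKM over 18 libraries (vertical log axis) of the 119 NAC genes, ranked by that mean (horizontal axis). Blue points are the 69 members with 1 FPKM or more in at least 2 libraries, which were tested, and grey points the 50 others; 17 members lie at 10 FPKM or above.

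The most abundant member was the 55-like gene Zm00001d010227, named after an Arabidopsis factor of the abscisic acid and jasmonate response, with a mean of 78.4 FPKM. It was followed by the generically named Zm00001d002945 (72 FPKM) and Zm00001d031655 (45.6 FPKM). The NAC1 gene Zm00001d034601 (29.2 FPKM), the 43-like gene Zm00001d035084 (26.4 FPKM), named after the secondary wall switch NST1, and Zm00001d049540 (25.7 FPKM) came next. In this order Zm00001d035084 and Zm00001d049540 lay close together: in each library Zm00001d049540 was between 17.3 and 32.6 FPKM, within the spread of Zm00001d035084 (3.93 to 52.6 FPKM).

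Stage comparisons averaged the 3 hybrids and set 6 libraries against 6, and adjacent steps share the big flare libraries. A gene passed at a Benjamini-Hochberg adjusted p below 0.05 over the 26792 genes tested with limma, and the 50 members under 1 FPKM in all but at most 1 library were not tested. In 5 tested members all libraries at 1 FPKM or more were of a single stage, and in 7 of a single hybrid. Such a member entered the test only through the group where it was high, so its call is a description. Of these, 4 of the 5 passed in a stage comparison and 3 of the 7 in a hybrid comparison. The same holds for called members with only 1 library at 1 FPKM or more outside a stage or hybrid, because the filter asks for 2. These were Zm00001d021423 and Zm00001d030023 (tasseling), Zm00001d002828 (jointing), Zm00001d023481 (low hybrid) and Zm00001d041886 (high hybrid). From jointing to big flare, 11 NAC genes rose and 3 fell, which is 14 of 69, beside 12.4% of all genes tested (7.29% higher, 5.06% lower). From big flare to tasseling, 14 rose and 12 fell, 26 of 69, beside a background of 41.6% (22.4% higher, 19.2% lower). Net from jointing to tasseling, 14 rose and 5 fell, 19 of 69, beside 29.9% (18.8% higher, 11.1% lower). The shares of NAC genes that changed between big flare and tasseling and over the whole course were thus near or below those of all genes. The median NAC log2 change was 0.02 for the first step, -0.01 for the second and -0.01 net, beside 0.07, 0.01 and 0.08 for all genes tested.

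Without the 3 libraries (low jointing 2, low big flare 1 and high jointing 2), 6 NAC genes rose and 5 fell at the first step, 14 rose and 12 fell at the second, and 7 rose and 8 fell net. Of these calls, 8, 24 and 11 were among those made with all libraries. Under quantile normalization 12 rose and 16 fell from big flare to tasseling. The share of all genes that passed was not counted under this or the other alternatives of this paragraph, so these counts have no background beside them. The first-step count was 9 without low big flare 2 and 8 without middle jointing 2 or middle big flare 1, and the net count was 12 without high tasseling 1.

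**Figure D2:**
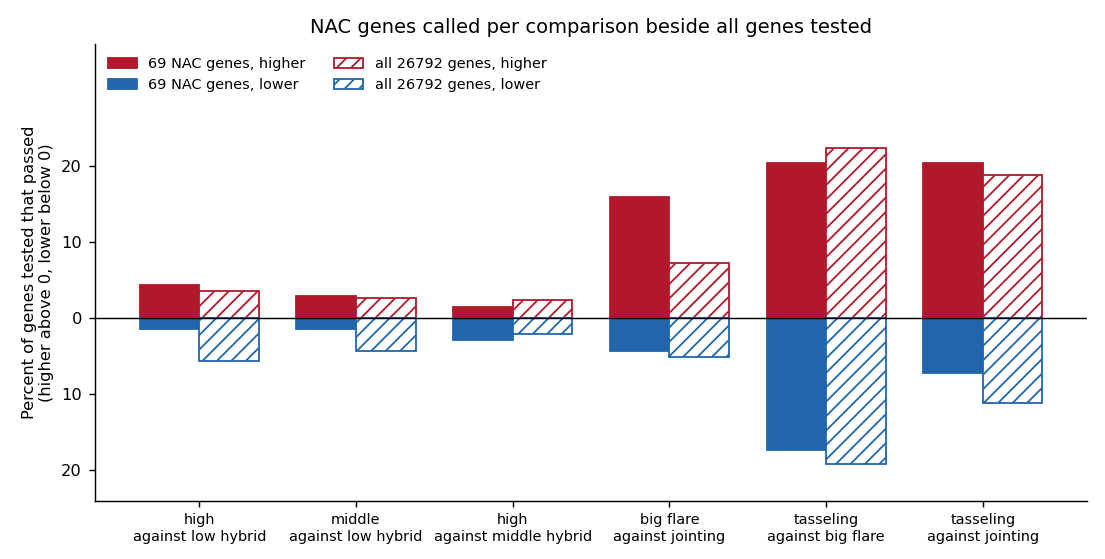
Percent of the 69 NAC genes tested (filled bars) and of all 26792 genes tested (hatched bars) that passed an adjusted p of 0.05 in each averaged comparison, with higher calls above 0 and lower calls below 0. NAC genes passed higher in 15.9% at the first stage step, where all genes passed in 7.29%.

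A set of members was highest at big flare. The clearest course was that of the 21/22-like gene Zm00001d024268, which shares its name with Arabidopsis NAC1. It measured 1.45 to 5.96 FPKM at jointing (median 2.74), 11.2 to 21.1 at big flare (median 14.3) and 0.24 to 1.43 at tasseling (median 0.84). The 3 stages did not overlap in any library. The log2 change was 2.00 ± 0.24 (SE) at the first step (limma, adjusted p = 0.000902), -3.17 ± 0.24 at the second (1.12e-05) and -1.18 ± 0.24 net (0.00369). In bulk stem, fewer cells of a type and less RNA per cell cannot be told apart, here and in all results that follow.

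The protein 48 gene Zm00001d042609, named after a rice stress factor (OsNAC6), measured 2.29 to 13 FPKM at jointing (median 5.52), 10.2 to 21.7 at big flare (median 17.9) and 0.29 to 8.23 at tasseling (median 0.805). The tasseling libraries lay below all big flare libraries, and 5 of the 6 were at 1.45 FPKM or less, with low tasseling 2 at 8.23. It fell by 2.90 ± 0.37 on the log2 scale from big flare to tasseling (adjusted p = 0.000105) and by 1.5 ± 0.37 net (0.00966). Its first-step rise of 1.40 ± 0.37 (adjusted p = 0.0294) did not pass with a pseudocount of 0.1 (0.0531) or without the 3 libraries (0.116). Leaving out single libraries gave adjusted p of 0.0182 to 0.0905, and the call was lost without low jointing 2, low big flare 2, middle jointing 2, middle big flare 1, high jointing 2, high big flare 1 or high big flare 2.

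The gene Zm00001d023669 carries the name of wheat NAM-1, a senescence and nutrient factor of leaves. Its level was 3.16 to 17 FPKM at jointing (median 6.96), 17.2 to 53.9 at big flare (median 31.8) and 3.21 to 8.62 at tasseling (median 6.75). All big flare libraries lay above all others, while jointing and tasseling overlapped. It rose by 1.86 ± 0.31 (adjusted p = 0.00376) and then fell by 2.2 ± 0.31 (0.000171), and both calls held without any single library.

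Among members with no role given by name, Zm00001d031655 was the most abundant of this course, at 21.6 to 49.0 FPKM at jointing (median 41.4), 58 to 99.98 at big flare (median 69.5) and 14.4 to 34.8 at tasseling (median 27.8). Big flare stood above the other stages in every library. Its fall of 1.54 ± 0.22 (adjusted p = 0.00021) held without any single library. Its rise of 0.96 ± 0.22 (0.0164) ranged from 0.0111 to 0.0541 in adjusted p between single left-out libraries, was lost without low big flare 2, middle jointing 2 or middle big flare 1, and was lost without the 3 libraries (0.0592).

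Zm00001d025861 was at 0 to 4.80 FPKM at jointing (median 1.02), 6.08 to 39.1 at big flare (median 14.1) and 0.81 to 11 at tasseling (median 3.55). Its rise had a log2 change of 2.83 ± 0.44 (adjusted p = 0.00296) and its fall of -1.80 ± 0.44 an adjusted p of 0.00617. Zm00001d003052 was at 0.15 to 3.39 FPKM at jointing (median 1.52), 5.19 to 25.7 at big flare (median 10.3) and 1.18 to 12.7 at tasseling (median 1.87), with changes of 2.29 ± 0.29 (0.001) and -1.53 ± 0.29 (0.00111). In both genes jointing and big flare did not overlap, and tasseling overlapped with each. The middle hybrid held the highest big flare library of both, at 39.1 and 25.7 FPKM in replicate 2.

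Lower down, Zm00001d014405 was at 0 in 4 of 6 jointing and 4 of 6 tasseling libraries, with at most 0.86 and 0.14 FPKM in the others, and at 1.11 to 6.52 FPKM at big flare. Its adjusted p was 0.00338 for the rise and 0.000239 for the fall, but it entered the test only through its big flare libraries, as did Zm00001d034277. Zm00001d034277 and Zm00001d022424 also rose and then fell, but each was at 0 in 1 big flare library and reached no more than 3.42 and 4.16 FPKM. The rise of Zm00001d034277 (adjusted p = 0.0407) had adjusted p of 0.0025 to 0.116 and was lost without any of 16 libraries, that is, all but low big flare 1 and middle big flare 2, and with the replicate block (0.0516), and its fall (0.018) without low big flare 2 (0.055). The rise of Zm00001d022424 (0.017) was lost without middle jointing 2 or middle big flare 1 (0.052 and 0.054 at the extremes), and its fall (0.0285) without low big flare 1, low tasseling 2, middle big flare 1, middle tasseling 2, high big flare 2 or high tasseling 1 (0.0606 to 0.0885). Both steps of Zm00001d022424 were also lost with a pseudocount of 0.1 (0.0512 and 0.269), and the rises of both genes without the 3 libraries (0.109 and 0.112).

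Of the 2 members that rose at the first step and did not pass at the second, the protein 68 gene Zm00001d049860 measured 4.03 to 11.8 FPKM at jointing (median 7.04), 9.34 to 24.1 at big flare (median 17.4) and 4.43 to 18.5 at tasseling (median 12.4). Its rise was 1.13 ± 0.27 (adjusted p = 0.0184), and adjusted p reached 0.0514 to 0.0604 without low big flare 2, middle jointing 2, middle big flare 1 or high big flare 1. Tasseling libraries of the low hybrid were at 4.43 and 5.54 FPKM and those of the other hybrids at 11.1 to 18.5. The abundant Zm00001d002945 moved little, from 49.3 to 67.5 FPKM at jointing (median 55.6) to 68.3 to 97.0 at big flare (median 79.4) and 61.97 to 88.4 at tasseling (median 80.2), with jointing below all big flare libraries. Its changes of 0.47 ± 0.12 at the first step (adjusted p = 0.0285) and 0.41 ± 0.12 net (0.0231) were small and were lost without some libraries. The first was lost (0.0533 to 0.0803) without low jointing 1, low big flare 2, middle jointing 2, middle big flare 1, middle big flare 2, high jointing 1 or high big flare 2, and under median-of-ratios scaling (0.0598) or without the 3 libraries (0.0583). The second was lost (0.0515 to 0.0671) without low jointing 1, low tasseling 2, middle jointing 2, middle tasseling 2, high jointing 1 or high tasseling 1, and under quantile normalization (0.128).

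Gene lists chosen by name as tissue markers moved with the big flare stage. The summed level of 55 MADS genes (35 reached 1 FPKM) was 428.8 to 565.5 FPKM at jointing, 789.5 to 1172 at big flare and 511.1 to 781.3 at tasseling. This list was chosen for flowers but takes every gene with MADS in its name, so its sum does not mark flower tissue alone. The 9 KNOX genes, which mark meristem and young stem and all reached 1 FPKM, summed to 271.4 to 335.6 FPKM at jointing, 375.3 to 538.2 at big flare and 159.4 to 336.5 at tasseling. Big flare stood above the other stages without overlap in both lists, and no gene of either list was at 0 in all libraries. Across the 18 libraries, the log2(FPKM + 1) level of Zm00001d042609 and the KNOX sum correlated at r = 0.904, that of Zm00001d031655 at 0.895 and that of Zm00001d024268 at 0.851, values that share the libraries and the stage steps. The other members that rose and then fell lay lower, from 0.288 (Zm00001d022424) to 0.69 (Zm00001d023669). Such a correlation was not particular to this course: Zm00001d045617, which passed only as lower at the second step, was at 0.87. The 23 leaf and green tissue genes (22 reached 1 FPKM, none at 0 in all libraries) summed to 2725.8 to 9241.6 FPKM at jointing (median 5996.8), 2091 to 4274.7 at big flare (median 3421.2) and 3118.3 to 5721.2 at tasseling (median 5169.2), with overlap between all stages. The correlation with this sum was -0.658 for the NAM-1 gene Zm00001d023669 and -0.672 for Zm00001d014405. It was -0.694 for Zm00001d045617, which is not a member that rose and then fell. For the other members that rose and then fell it lay between -0.541 (Zm00001d022424) and -0.398 (Zm00001d003052). The part of these tissues in the NAC results was not tested.

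**Figure D3:**
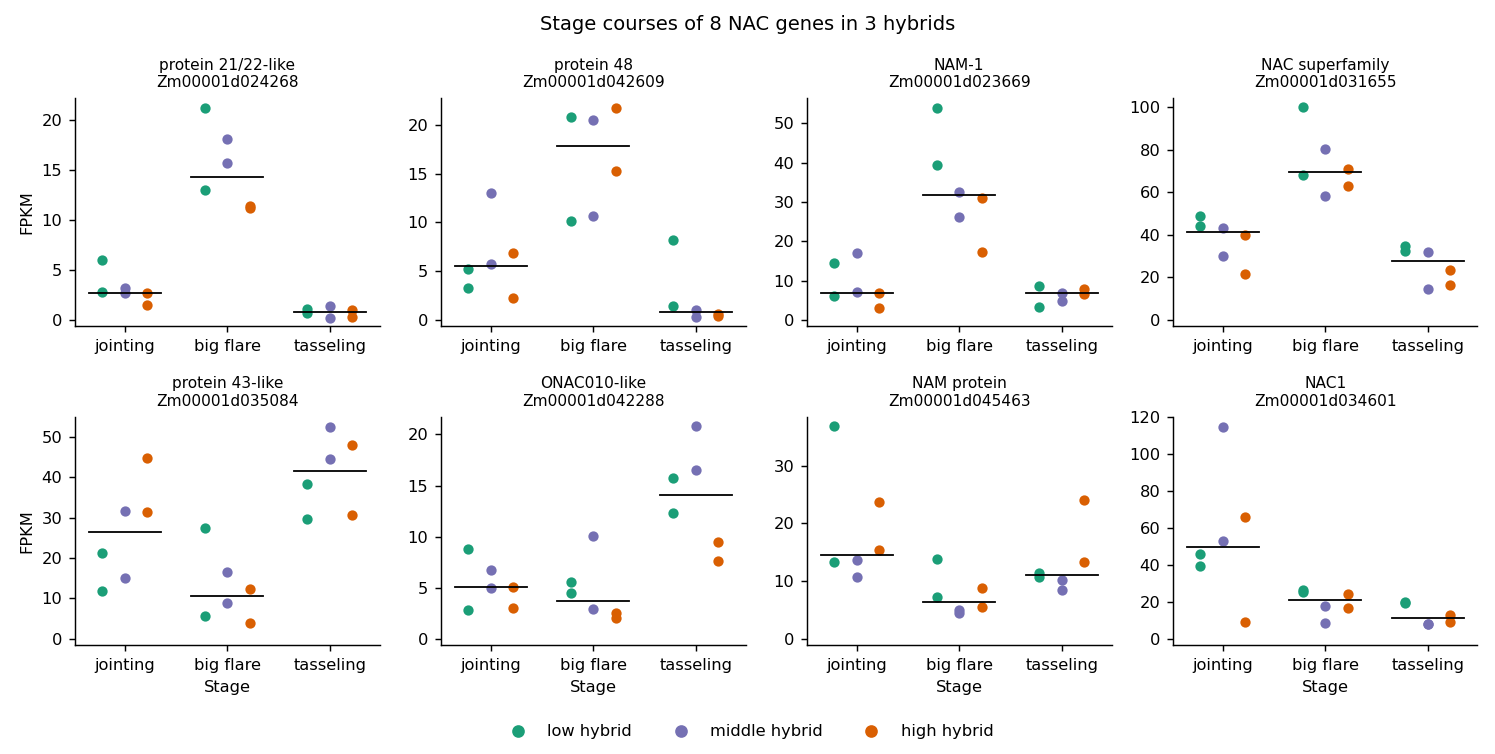
FPKM (vertical axes, linear) of 8 NAC genes at 3 stages (horizontal axes) in the 18 libraries, coloured by hybrid, with the median of the 6 libraries of a stage as a black line. The upper row shows genes that were highest at big flare, from 11.2 to 21.1 FPKM in Zm00001d024268; the lower row shows genes with their median lowest at big flare (Zm00001d035084, Zm00001d042288, Zm00001d045463) or highest at jointing (Zm00001d034601).

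Other members were lowest at big flare. The NAM gene Zm00001d045463, whose name is that of the petunia factor needed for a shoot apical meristem, measured 10.7 to 36.9 FPKM at jointing (median 14.5), 4.42 to 13.9 at big flare (median 6.41) and 8.5 to 24.1 at tasseling (median 11). The stages overlapped, and low big flare 1 was the highest big flare library. It fell by 1.21 ± 0.26 on the log2 scale (adjusted p = 0.0125), a call that held without any single library. Its later change of 0.74 ± 0.26 (0.0362) was lost (0.0558 to 0.106) without low big flare 2, low tasseling 1, low tasseling 2, middle big flare 1, middle big flare 2, middle tasseling 1, middle tasseling 2, high big flare 2 or high tasseling 2, and under both scalings (0.0509 and 0.0735).

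The generically named Zm00001d013003 was at 7.22 to 51.7 FPKM at jointing (median 20.3). At big flare it was listed at 0 in low replicate 2 and middle replicate 1 and reached 1.91 to 8.40 FPKM in the other 4 libraries, and at tasseling it was at 4.12 to 16 (median 9.48). It fell by 2.78 ± 0.59 (adjusted p = 0.0121), which held without any single library. The later rise of 1.72 ± 0.59 (0.034) was lost (0.0556 to 0.0992) without low big flare 2, low tasseling 1, low tasseling 2, middle big flare 1, middle tasseling 1, middle tasseling 2, high big flare 1 or high tasseling 1, and without the filter on low values (0.0501).

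Secondary wall NAC 6 (Zm00001d002828) was at 0.27 to 3.70 FPKM at jointing, was listed at 0 in 4 of 6 big flare libraries with 0.28 and 0.33 FPKM in the others, and was at 0.35 to 2.47 FPKM at tasseling. It entered the test only through its jointing libraries, because high tasseling 2 was the only other library at 1 FPKM or more. Its fall had an adjusted p of 0.0118, or 0.0838 without the 3 libraries. The later rise (0.0481) was lost without any of 13 libraries (0.0563 to 0.135), that is, all but low jointing 1, low jointing 2, high jointing 1, high jointing 2 and high tasseling 1. It was also lost without the filter (0.0505), under median-of-ratios scaling (0.0624), under quantile normalization (0.128) and without the 3 libraries (0.057).

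Markers of vessels and secondary walls (21 laccase, wall cellulose synthase and xylem proteinase genes, 16 at 1 FPKM or more) summed to 909.7 to 3142 FPKM at jointing, 245.3 to 1090 at big flare and 342.1 to 4090 at tasseling. Correlations with this sum over the 18 libraries were 0.701 for Zm00001d045463, 0.684 for Zm00001d002828 and 0.49 for Zm00001d013003. Big flare libraries were also shallower than tasseling ones, with a relative depth of 0.431 to 0.625 beside 0.63 to 1.0. The part of either in these results was not tested.

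A further set of members rose from big flare to tasseling after no call at the first step. The 43-like gene Zm00001d035084 measured 11.8 to 44.9 FPKM at jointing (median 26.4), 3.93 to 27.4 at big flare (median 10.7) and 29.8 to 52.6 at tasseling (median 41.5). Every tasseling library lay above every big flare library. Its rise of 1.84 ± 0.37 (adjusted p = 0.00182) held without any single library, while the change before it was -1.11 ± 0.37 (0.0691). The 7-like gene Zm00001d050039, named after the vessel factor VND4, was listed at 0 in 4 of 6 big flare libraries (0.70 and 0.83 FPKM in the others) and reached 0.22 to 6.92 FPKM at tasseling (median 4.49). Its adjusted p was 0.00582, and low tasseling 2 was the lowest library at 0.22 FPKM.

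The ONAC010-like gene Zm00001d042288, whose rice namesake is close to wheat NAM-B1, was at 2.81 to 8.76 FPKM at jointing (median 5.02), 2.05 to 10.03 at big flare (median 3.72) and 7.65 to 20.8 at tasseling (median 14.1). Within each hybrid both tasseling libraries lay above the jointing and big flare libraries. It rose by 1.47 ± 0.29 at the second step (adjusted p = 0.00145) and by 1.26 ± 0.29 net (0.00623), without loss of a call in any left-out library. Zm00001d042288 thus rose where Zm00001d023669, the NAM-1 gene, fell.

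Several genes near the detection limit were seen mainly at tasseling. All tasseling libraries were deeper than all big flare libraries, with a relative depth of 0.63 to 1.0 beside 0.431 to 0.625. The part of depth in the results for these genes was not tested. The 74-like genes Zm00001d021424 and Zm00001d021423 lie next to each other in the RefSeq annotation of Zm-B73-REFERENCE-NAM-5.0, with 0 protein-coding genes between them. Zm00001d021424 was listed at 0 in 4 big flare libraries and at most at 0.23 FPKM in the others, and at 1.00 to 8.52 FPKM at tasseling, above all big flare libraries. Its adjusted p was 0.000671 for the step and 0.00775 net. Zm00001d021423 was listed at 0 in 5 jointing and 5 big flare libraries and was at 0.77 to 2.89 FPKM at tasseling (adjusted p = 0.000402 for the step and 0.00126 net). It entered the test only through its tasseling libraries, because low jointing 1 was the only other library at 1 FPKM or more. The 2 genes correlated at r = 0.863 over the 18 libraries, as a description, and reads of near-identical copies could be split between them.

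The 67-like gene Zm00001d030023, of the stress group, was listed at 0 in all 6 big flare libraries, at 0 to 1.07 FPKM at jointing and at 0.24 to 2.15 FPKM at tasseling (adjusted p = 0.00293 for the step). This gene entered the test only through its tasseling libraries, with low jointing 1 the only other library at 1 FPKM or more. The NAC5 gene Zm00001d003414, tested only through its tasseling libraries, was at 0 to 0.41 FPKM at jointing, 0 to 0.99 at big flare and 0.28 to 3.90 at tasseling (0.0102 for the step and 0.00475 net). In both genes the stages overlapped except between big flare and tasseling in Zm00001d030023. Zm00001d048493 was at 0.50 to 2.33 FPKM at big flare and 1.10 to 5.62 at tasseling (adjusted p = 0.00305), and Zm00001d034984 at 0 to 1.97 and 0.17 to 10.5 (0.0133, and 0.0753 with a pseudocount of 0.1). Net, both passed at 0.035 and 0.0494 and neither held without the 3 libraries (0.113 and 0.0869).

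The net call of Zm00001d048493 was further lost without low jointing 1, low jointing 2, low tasseling 2, middle jointing 2, middle tasseling 1, high jointing 1, high jointing 2 or high tasseling 1 (0.0536 to 0.0995). It was also lost with a pseudocount of 0.1 (0.0654) and without the filter (0.0504). That of Zm00001d034984 was lost without 12 libraries (0.0589 to 0.141), that is, all but low jointing 1, low tasseling 2, middle big flare 1, middle big flare 2, high jointing 2 and high tasseling 1. It was also lost with a pseudocount of 0.1 (0.143), without the filter (0.0695), under median-of-ratios scaling (0.0559) and with the replicate block (0.0603).

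The 2 others of this kind were Zm00001d024543, at 1.31 to 4.46 FPKM at big flare and 3.25 to 7.09 at tasseling, and Zm00001d021818, which was at most 0.30 FPKM at big flare and reached 2.12 FPKM in low tasseling 2. The only 2 libraries of Zm00001d021818 at 1 FPKM or more were the tasseling libraries of the low hybrid, through which alone it was tested. The step of Zm00001d024543 (0.68 ± 0.25, adjusted p = 0.0449) was lost without any of 15 libraries (0.0527 to 0.136), that is, all but low big flare 1, middle tasseling 1 and high big flare 1. It was also lost under quantile normalization (0.0696), with the replicate block (0.0523), with a pseudocount of 0.1 (0.058) and without the filter (0.0661). Its net change of 0.81 (0.03) was lost (0.0508 to 0.0809) without low jointing 1, low jointing 2, low tasseling 2, middle jointing 1, middle tasseling 2, high jointing 1, high jointing 2, high tasseling 1 or high tasseling 2, and without the 3 libraries (0.0666). The step of Zm00001d021818 (0.0271) was lost (0.0534 to 0.0797) without low big flare 2, low tasseling 2, middle big flare 1, middle tasseling 1, high big flare 2 or high tasseling 1, with a pseudocount of 0.1 (0.0798) and under quantile normalization (0.0645). Its net change (0.0374) was lost (0.0602 to 0.102) without low jointing 1, low jointing 2, low tasseling 2, middle jointing 2, middle tasseling 1, high jointing 1, high jointing 2 or high tasseling 1, with a pseudocount of 0.1 (0.0796) and without the 3 libraries (0.0937).

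Members that fell at tasseling without a call at the first step had no role given by name. Zm00001d020972 was at 7.28 to 13 FPKM at jointing (median 8.45), 7.58 to 10.8 at big flare (median 10.2) and 3.28 to 5.48 at tasseling (median 4.90). Its tasseling libraries lay below all others, with a fall of 0.92 ± 0.17 on the log2 scale (adjusted p = 0.00115) and 0.83 ± 0.17 net (0.00373). Zm00001d045617 was at 8.19 to 11.9 FPKM at big flare (median 9.30) and 3.89 to 9.0 at tasseling (median 4.43), a fall of 0.82 (0.00305), and low tasseling 2 was the highest tasseling library at 9.0 FPKM. Zm00001d000112 was at 1.00 to 27.3 FPKM at jointing, 1.86 to 8.5 at big flare and 0 to 3.14 at tasseling. It fell by 1.87 ± 0.58 (0.0217) and by 1.95 ± 0.58 net (0.0246). The step was lost without low big flare 2, low tasseling 1, middle big flare 1, middle tasseling 1 or high big flare 1 (0.0536 to 0.0688), and the net change without low jointing 2, low tasseling 1, middle jointing 2, middle tasseling 1 or high tasseling 2 (0.0512 to 0.0727).

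Net changes without a called step were led by the NAC1 gene Zm00001d034601, known in Arabidopsis for lateral root formation downstream of auxin. It was at 9.19 to 115 FPKM at jointing (median 49.5), 8.69 to 26.4 at big flare (median 21.1) and 7.79 to 19.99 at tasseling (median 11). High jointing 2, the library nearest to tasseling, was at 9.19 FPKM, while the other 5 jointing libraries were at 39.3 FPKM or above and lay above all later libraries. The net log2 change was -1.78 ± 0.38 (adjusted p = 0.00433), which held without any single library, and neither step passed alone (0.059 and 0.234).

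Of the members that rose net without a called step, Zm00001d028995 was at 2.49 to 9.76 FPKM at jointing (median 7.21) and 10.5 to 19.2 at tasseling (median 12.1), with no overlap. It rose by 0.95 ± 0.20 (adjusted p = 0.00355) and kept its call without any single library. Zm00001d042580 was at 1.63 to 4.01 FPKM at jointing and 4.13 to 8.18 at tasseling, also without overlap, and rose by 0.95 ± 0.24 (0.01), or 0.0511 in adjusted p without the 3 libraries.

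The 55-like gene Zm00001d010227 had a net change of 0.63 ± 0.19 (adjusted p = 0.0276), from 41.9 to 93.6 FPKM at jointing (median 57.7) to 62.5 to 122 at tasseling (median 99.1), and the stages overlapped. The protein 68 gene Zm00001d011969 had 0.99 ± 0.31 (0.0316), from 4.97 to 17.6 FPKM (median 9.96) to 15.2 to 30.3 (median 19.2). The protein 78 gene Zm00001d051879, named after a membrane-tethered Arabidopsis factor, had 0.46 ± 0.13 (0.0206), from 15.7 to 25.1 FPKM (median 19.5) to 21.6 to 32.7 (median 28). None of the 3 passed without the 3 libraries (0.0945, 0.0572 and 0.108), and Zm00001d010227 and Zm00001d051879 missed under quantile normalization (0.0912 and 0.05). Zm00001d010227 was lost (0.0558 to 0.0805) without low jointing 1, low tasseling 2, middle jointing 2, middle tasseling 2, high jointing 2 or high tasseling 1. Zm00001d011969 was lost (0.0599 to 0.096) without low jointing 2, low tasseling 2, middle jointing 2, middle tasseling 2, high jointing 1, high tasseling 1 or high tasseling 2. Zm00001d051879 was lost (0.0515 to 0.0626) without low jointing 2, low tasseling 2, middle tasseling 2 or high tasseling 1.

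**Figure D4:**
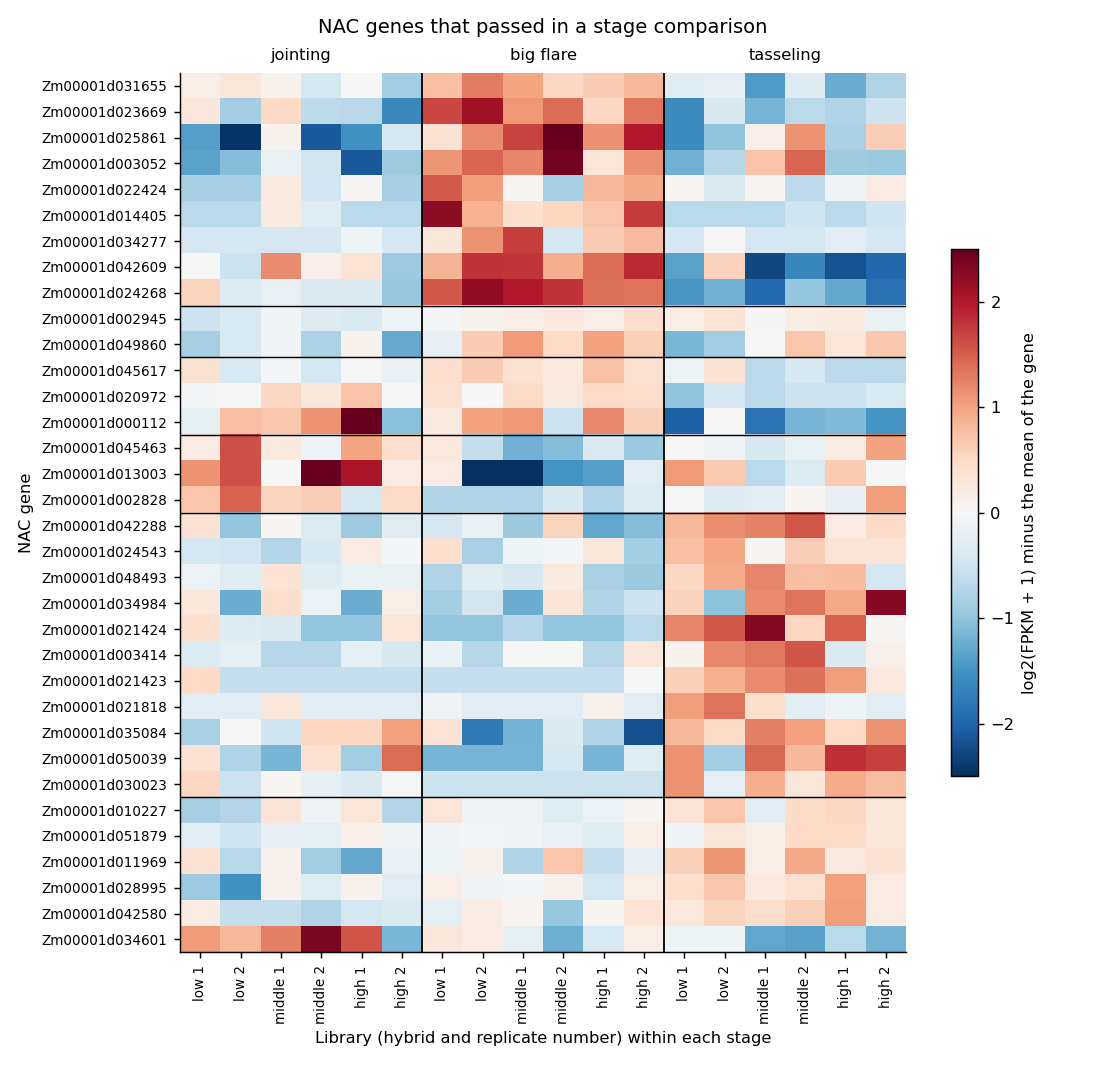
Log2(FPKM + 1) minus the mean of each gene over 18 libraries (colour, limited to 2.5 units either way) for the 34 NAC genes that passed in at least 1 stage comparison (rows), with libraries in columns by stage. Rows are ordered by which stage steps passed, with lines between the orders, and adjacent steps share the big flare libraries. Big flare columns are mostly red in the top block and mostly blue in the block from Zm00001d045463 to Zm00001d002828.

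By role group, the stage counts were small. Of 5 tested genes of the stress and abscisic acid type, 2 rose at the first step, 1 rose and 1 fell at the second, and 2 rose and 1 fell net. Their median log2 change was 0.28, 0.38 and 0.63, beside the medians of all genes given above. Of 6 tested boundary and NAC1 genes, 1 rose and 1 fell at each step and 2 fell net (medians -0.21, -0.38 and -0.44). Of 9 tested secondary wall and vessel genes, 1 fell at the first step and 3 rose at the second, with none passing net (medians -0.22, 0.50 and 0.22). Beside these counts, 12.4%, 41.6% and 29.9% of all genes tested passed in either direction at the first step, at the second and net, and 22.4% rose at the second. Of 5 tested membrane-tethered genes, 1 passed net and none at a step. Both tested wheat NAM type genes are described above, and this group was separated from the others after values were seen.

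The 2 genes with the NST1 name did not share a course. Zm00001d036050 was at 6.46 to 32.2 FPKM at jointing (median 10.8), 4.26 to 21.3 at big flare (median 10.9) and 5.58 to 23.0 at tasseling (median 9.80), with changes of -0.19 ± 0.32 and 0.06 ± 0.32 at the 2 steps (adjusted p = 0.744 and 0.910). Its correlation with Zm00001d035084 over the 18 libraries was 0.275, and that between the protein 68 genes Zm00001d011969 and Zm00001d049860 was -0.126. The difference in course between the members of a pair was not tested.

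Members that varied little included the 53-like gene Zm00001d031898, of the membrane-tethered group, at 14 to 26.4 FPKM over the 18 libraries, and Zm00001d049540, given above. Others varied most between replicates of a group. Zm00001d043921 differed between replicates by a median of 1.70 log2 units over the 9 groups, the 73-like gene Zm00001d011555, named after the secondary wall factor SND2, by 1.37 and Zm00001d039004 by 1.33. All 3 had their highest value in high tasseling 2, at 118 FPKM for Zm00001d043921, 75.1 for Zm00001d039004 and 23.2 for Zm00001d011555, while high tasseling 1 had 34.1, 13 and 5.6. In the same library the vessel and secondary wall markers summed to 4090 FPKM, the highest of all 18, beside 1009 in high tasseling 1. Over the 18 libraries the correlation with that sum was 0.745, 0.756 and 0.676 in the same order. None of the 3 passed in any comparison, and the part of vessel tissue in their values was not tested.

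Hybrid comparisons averaged the 3 stages, again 6 libraries against 6, and each hybrid enters 2 of the 3 comparisons. Few NAC genes passed. In high against low, 3 were higher and 1 was lower, 4 of 69, beside 9.21% of all genes tested (3.58% higher, 5.63% lower). In middle against low, 2 were higher and 1 was lower, 3 of 69, beside 6.93% (2.62% higher, 4.31% lower). In high against middle, 1 was higher and 2 were lower, 3 of 69, beside 4.44% (2.37% higher, 2.07% lower). The median NAC log2 differences were -0.01, 0.02 and 0.04, beside -0.07, -0.04 and -0.03 for all genes. Except for Zm00001d003052, every gene called here entered the test only through the hybrid where it was high, as given above. The calls of those genes are descriptions, and so are the counts that they make up. Most of the genes concerned were below 4 FPKM in every library. The counts that follow come from fits with libraries left out, for which the share of all genes that passed was not counted. The count for high against low was 1 without low jointing 1, low tasseling 1, low tasseling 2 or high big flare 2, and 2 without low jointing 2, low big flare 1, low big flare 2, high tasseling 2, high jointing 1 or high big flare 1. That for middle against low was 1 without middle tasseling 2, and that for high against middle was 1 without middle tasseling 2, high jointing 1 or high big flare 2. Without the 3 libraries the counts were 3, 1 and 3.

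Zm00001d023481 had its signal in the low hybrid. The low libraries measured 1.14 and 1.30 FPKM in the jointing pair, 2.19 and 1.46 in the big flare pair and 2.49 and 3.12 in the tasseling pair. Of the middle libraries 5 were listed at 0 and big flare 1 was at 1.5, and the high libraries were at 0 to 0.61. All low libraries lay above all high libraries, and middle big flare 1 was the single overlap with the middle hybrid. The gene entered the test only through its low libraries, because middle big flare 1 was the only other library at 1 FPKM or more, so its calls are a description. The log2 difference was -1.23 ± 0.23 for high against low (adjusted p = 0.00344) and -1.30 ± 0.23 for middle against low (0.00287), and both held without any single library. This locus was also matched to Rab7, so its NAC name is uncertain.

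Zm00001d037223, also matched to FAB1A, was highest in the middle hybrid. Its middle libraries were at 3.08 and 0.86 FPKM (jointing), 1.89 and 0.51 (big flare), then 1.13 and 2.03 (tasseling), above all low (0 to 0.36) and all high libraries (0 to 0.45). It entered the test only through 4 middle libraries. It passed in middle against low (1.08, adjusted p = 0.0162), where the call was lost without middle tasseling 2 (0.052), and in high against middle (-1.03, 0.0289). The latter was lost without middle jointing 1, middle big flare 1, middle tasseling 2, high tasseling 1, high big flare 2, high jointing 1 or high jointing 2 (0.0558 to 0.0843). Without the 3 libraries the values were 0.0982 and 0.0881.

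Zm00001d003052, highest at big flare, also differed between hybrids. Its middle libraries were at 3.39 and 2.63 FPKM (jointing), 10.6 and 25.7 (big flare), then 7.16 and 12.7 (tasseling). The low libraries were at 0.97 and 1.34, 9.69 and 12.7, and 1.18 and 2.06 FPKM at the same stages, and the high libraries at 0.15 and 1.69, 5.19 and 10.01, and 1.68 and 1.63 FPKM. Middle exceeded low and high at jointing and tasseling in every library, and low and middle overlapped at big flare. The log2 difference was -1.42 ± 0.29 for high against middle (adjusted p = 0.0113), which held without any single library. For middle against low it was 1.16 ± 0.29 (0.0281), lost (0.0522 to 0.0858) without low jointing 1, low big flare 1, low tasseling 1, middle jointing 1, middle jointing 2, middle big flare 2 or middle tasseling 2, with a pseudocount of 0.1 (0.0788) and without the 3 libraries (0.0771).

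Several members were listed at 0 throughout the low hybrid. The 21/22-like gene Zm00001d041886 was at 0 in all 6 low libraries and at 1.08 to 2.67 FPKM in all 6 high libraries, while 3 middle libraries were at 0 and the others at 0.86, 0.92 and 6.54. It entered the test only through its high libraries, because middle jointing 1 was the only other library at 1 FPKM or more. High against low passed with an adjusted p of 0.0472, but not without the filter (0.0599), with the replicate block (0.0531), without the 3 libraries (0.181) or without any of 16 libraries (0.0527 to 0.125), that is, all but middle jointing 1 and middle jointing 2.

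The 78-like genes Zm00001d006636 and Zm00001d026100 were listed at 0 in all low and middle libraries. In the high hybrid Zm00001d006636 was at 1.16 and 0 FPKM (jointing), 1.74 and 1.42 (big flare), then 0 and 0.67 (tasseling). Zm00001d026100 was at 0.58 and 0, 1.43 and 3.49, and 0.57 and 0 FPKM. Another gene of that name, Zm00001d040657, was likewise listed at 0 in the low and middle hybrids and was at 1.98 FPKM in high jointing 1 and 1.82 in high tasseling 1 alone, and it passed in no comparison. These levels are too low and too uneven for a fold, and reads of near-identical copies could be split between them.

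Both Zm00001d006636 and Zm00001d026100 entered the test only through libraries of the high hybrid (3 and 2 at 1 FPKM or more). In high against low, Zm00001d006636 had an adjusted p of 0.0317 and was lost without any low library or without high jointing 1, high big flare 1, high big flare 2 or high tasseling 2 (0.0547 to 0.0968). Zm00001d026100 had 0.0223 and was lost without low jointing 1, low tasseling 1, low tasseling 2, high tasseling 1, high big flare 2 or high jointing 1 (0.0508 to 0.0638), and without the 3 libraries (0.051). In high against middle Zm00001d026100 had 0.0382 and was lost with the replicate block (0.0542) and without any middle library, low big flare 1, low big flare 2, low tasseling 1, low tasseling 2, high tasseling 1, high big flare 2 or high jointing 1 (0.0505 to 0.105). The correlation between Zm00001d006636 and Zm00001d026100 was 0.816 over the 18 libraries, with the low and middle libraries all at 0 for both.

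**Figure D5:**
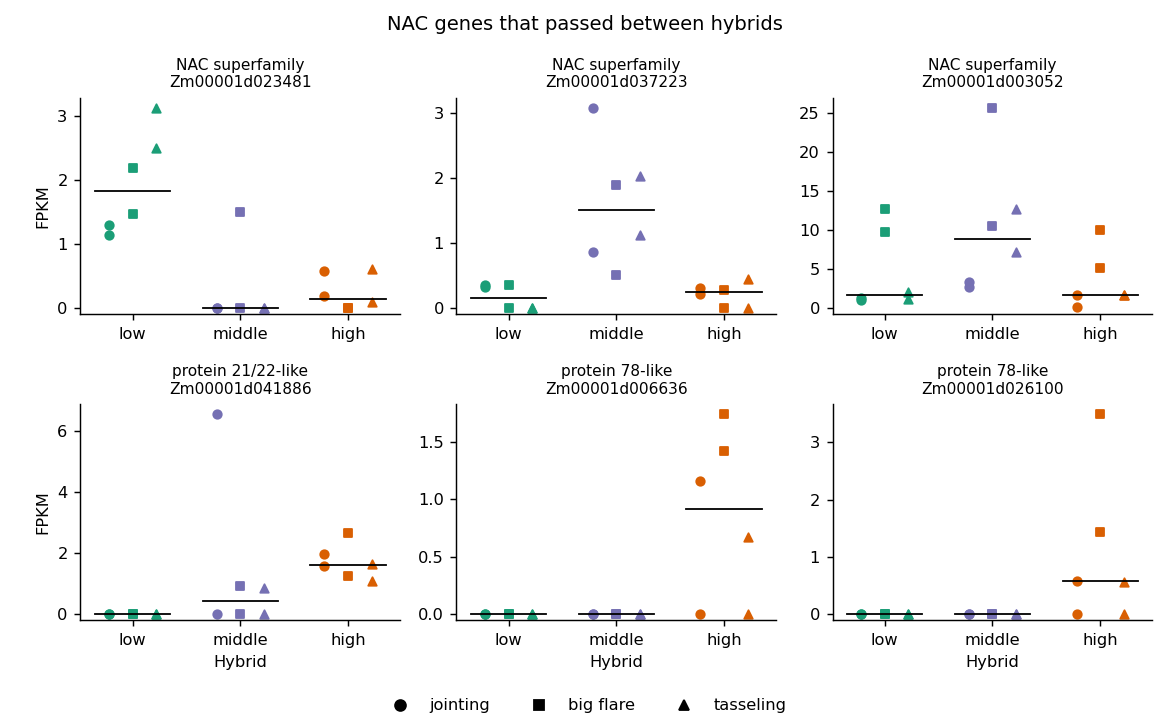
FPKM (vertical axes, linear) of the 6 NAC genes that passed in a hybrid comparison, in the low, middle and high hybrid (horizontal axes), with marker shapes for stages and the median of the 6 libraries of a hybrid as a black line. Zm00001d023481 lies at 1.14 to 3.12 FPKM in the low hybrid, and the lower row shows genes listed at 0 in all low libraries.

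The stage course of no NAC gene differed between hybrids past the threshold. In the limma F test of hybrid-by-stage interaction 0 of 69 passed, beside 0.056% of all genes tested, and 5 had an unadjusted p below 0.05. The smallest of these was 0.016, for Zm00001d021818 (adjusted p = 0.836). The count was 0 in all other settings and without any single library, and groups of 2 libraries limit this test.

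In all, 39 of the 69 tested members passed in at least 1 comparison and 30 in none, 34 passed in a stage comparison and 6 in a hybrid comparison, and Zm00001d003052 passed in both kinds. Of all genes tested, 58% passed in at least 1 of the 6 averaged comparisons, 50.5% in a stage comparison and 13.1% in a hybrid comparison.

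Genes of processes in which NAC factors act were counted from the same fit. Of 17 genes named for chlorophyll breakdown or senescence, 15 were tested: 1 rose at the first step, 4 rose and 4 fell at the second, and 2 rose and 1 fell net, beside the 12.4%, 41.6% and 29.9% of all genes that passed in these comparisons. The stay-green protein 2 gene Zm00001d021288, of chlorophyll breakdown, was at 0 to 3.42 FPKM at jointing, 1.02 to 16.1 at big flare and 0 to 1.69 at tasseling, with adjusted p of 0.0164 and 0.00235 for the 2 steps. The more abundant senescence-associated gene Zm00001d048449 was at 24.7 to 51.5 FPKM at jointing, 33.9 to 73.2 at big flare and 118 to 189 at tasseling. It rose by 1.71 ± 0.21 at the second step (adjusted p = 8.57e-05). Between hybrids, 1 gene of the list was higher and 2 were lower in high against low, beside 9.21% of all genes tested in either direction. In high against middle 1 was higher, beside 4.44% in either direction. Of 18 LOB domain genes, another plant-specific family with members at organ boundaries, 7 were tested. At the first step 1 rose and 1 fell, at the second 2 rose and 2 fell, and net 1 rose and 2 fell. In high against low 1 was lower. The shares of all genes just given stand beside these counts too. LOB domain 37-like (Zm00001d033347) was at 15.5 to 55.4 FPKM at jointing, 83.6 to 173 at big flare and 2.03 to 14.3 at tasseling, and the stages did not overlap. Its log2 change was 2.10 ± 0.43 (adjusted p = 0.00984) and then -4.25 ± 0.43 (3.2e-05). LOB domain 1 (Zm00001d010978) had the opposite course, at 0.71 to 2.59 FPKM at jointing, 0 to 0.74 at big flare and 4.06 to 15.9 at tasseling. Its log2 change was -0.98 ± 0.24 (adjusted p = 0.0219) and then 3.04 ± 0.24 (1.19e-05).

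The genes most like the 3 most abundant members that passed a comparison were taken from all genes tested by Pearson correlation of log2(FPKM + 1) over the 18 libraries. For Zm00001d010227 these were Zm00001d000110 (r = 0.906), Zm00001d018291 (0.887) and BGI_novel_G000824 (0.884), which have no informative name. For Zm00001d002945 they were AGO1a (Zm00001d035747, 0.882), casein kinase II subunit alpha-2 (Zm00001d034125, 0.88) and Zm00001d026106 (0.874). For Zm00001d031655 they were 12-oxo-phytodienoic acid reductase 6 (Zm00001d040842, 0.96), Zm00001d021668 (0.957) and Zm00001d006868 (0.957).

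The 2 secondary wall NAC genes outside the set, Zm00001d045600 and Zm00001d049678, went in mean level from 3.76 and 3.36 FPKM at jointing to 0.205 and 0.94 at big flare and stood at 2.44 and 8.35 at tasseling. Both rose from big flare to tasseling (adjusted p = 0.00521 and 0.000283).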

How the data were processed

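Poly-A RNA of maize stem was sequenced from both fragment ends, per the labels' protocols. The authors deposited FPKM values for 34474 genes in 18 libraries. The submitters' processing notes name Cufflinks 2.2.1, DESeq 1.28.0, Cuffdiff and TopHat2 with build B73 RefGen_v4, without roles or order. Filters are not stated in the sources. FPKM divides by library size, so abundant genes can shift all others. The strand setting of the quantification is not given either. Read counts and absolute depth are unknown. A relative depth, fitted to steps between low FPKM values, ran from 0.431 (high big flare 1) to 1.0 (low tasseling 2) and averaged 0.59 at jointing, 0.546 at big flare and 0.866 at tasseling, with 96.7% of 153 library pairs within 0.05 log2 units. Low values are measured less precisely where depth is lower.

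The values were fitted with limma 3.58.1 (R 4.3.3) as log2(FPKM + 1), a scale on which changes of low genes come out too small. Genes with 1 FPKM or more in at least 2 libraries entered (26792, of which 69 were NAC genes). The model held 9 group means over 18 libraries (9 residual degrees of freedom) with a variance trend. Tests of contrasts were two-sided, p-values were adjusted over all genes tested by the Benjamini-Hochberg method with a threshold of 0.05, and errors given with ± are SE. The procedure was tested on simulated data.

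The members, name groups, related lists and tests were chosen with earlier results of these data known. Role groups come from the numbers in the protein names, which can refer to an Arabidopsis or a rice protein. Named genes were the 6 most abundant members and, per comparison, the largest called changes of one sign throughout the 3 stages or hybrids, with a mean of at least 5 FPKM on the higher side. Other members named were chosen after their values were seen, because every member that passed is accounted for. The reference table of Zm-B73-REFERENCE-NAM-5.0 gave symbols and neighbours only. Neighbours were read from the order of gene starts on each chromosome, and no sequence was used. Alternatives were a pseudocount of 0.1, no filter, median-of-ratios scaling, quantile normalization, a replicate block, each library left out in turn and, added later, 3 libraries left out together.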

Additional observations from a re-analysis of the deposited data

How the results depend on the processing

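The number of NAC genes that passed stayed within 1.5 times its value under a pseudocount of 0.1, no filter, both scalings and the replicate block in all 6 averaged comparisons, and no call reversed its sign in any alternative. Of 69 calls (a gene in a comparison), 39 were kept without any single library and 36 under every alternative. A pseudocount of 0.1 ended 10 calls, no filter 6, median-of-ratios scaling 4, quantile normalization 7 and the replicate block 5. Quantile normalization gave 2 higher and 2 lower genes in high against middle and 12 higher and 16 lower in tasseling against big flare. Leaving out single libraries gave counts of 1 to 5 for high against low, 1 to 4 for middle against low, 1 to 3 for high against middle, 8 to 16 for big flare against jointing, 19 to 29 for tasseling against big flare, 12 to 21 for tasseling against jointing and 0 for the interaction. A group with a single library left is assumed to vary like the others. Without low jointing 2, low big flare 1 and high jointing 2 together, an alternative chosen after seeing the data, middle against low gave 1. The cause of these losses was not tested, beyond the smaller number of libraries. Shares of all genes were not counted under any alternative, so the counts in this section have no background beside them.

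No consistent pairing of the samples by replicate number was seen: over 36 pairs of groups, differences between replicates correlated at -0.43 to 0.293 (median -0.007), and 8 pairs were above 0.1. With the replicate block the counts were 3, 3 and 2 for the hybrid comparisons in the order above, 13, 25 and 20 for the stage comparisons and 0 for the interaction. FPKM without read counts gives no depth for a single gene, so members near 0 FPKM cannot be called absent.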
